A study of Mus musculus with 9 samples.

Results

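Zfp genes are mouse genes named for a zinc finger protein, and most of them encode nuclear proteins that bind DNA through strings of C2H2 zinc fingers. The genes described here are the 148 whose platform symbol is Zfp followed by digits only and whose brightest probe set had a mean signal of at least 50 over all 9 arrays. Zfp36, whose product binds AU-rich messenger RNA with fingers of another kind, was left out. The array named 304 Zfp genes by that rule, and the other 156 lay under the signal floor. The array gave 18193 genes with a single symbol in all, of which 12347 were tested. All 148 were among the genes tested. The members were thus chosen by their mean signal over all arrays, so their brightness is a description and carries no test.

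RNA came from granulocyte-macrophage progenitors (GMPs), the marrow cells that give rise to neutrophils and monocytes. They were sorted as EYFP-positive cells from C57BL/6 recipients that had been irradiated (8.5 Gy) at 6 to 8 weeks of age and given fetal liver cells of embryonic day 13.5 donors, 6 to 10 weeks after the transplant. Every donor carried Cebpa-Cre, which acts in cells that use the Cebpa gene, and the R26-LSL-Eyfp reporter that Cre turns on. The groups differ in Dicer1, the gene of the RNase that cuts precursors into mature microRNAs, and hold 3 arrays each. The groups are labelled Dicer wild type, Dicer heterozygous deletion and Dicer null, and the null group came from Dicer1 fl/fl donors. Cells of a fetal liver usually went to several recipients, and the labels do not say which arrays share a donor, so the p-values measure the spread between these arrays, which may be partly technical. The comparisons ask how transcript levels in GMPs differ with the number of Dicer1 alleles lost.

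Many C2H2 zinc finger proteins also carry a KRAB domain, which recruits the scaffold protein Trim28. Trim28 in turn brings in the histone methyltransferase Setdb1, heterochromatin protein 1 and the NuRD deacetylase complex, and the bound DNA is silenced. The targets of many KRAB zinc finger proteins are retroviral and other transposable elements, and the genes often lie side by side in clusters. Other Zfp genes encode unrelated proteins that share only the finger, among them ubiquitin and SUMO ligases and factors of ribosome assembly.

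Zinc finger transcripts have a described link to microRNAs. In human cells the miR-181 family acts on repeated sites in the coding sequence of C2H2 zinc finger transcripts. Its mouse members are shown because Dicer makes them and because they carry a single seed, the stretch that pairs with a target. RefSeq lists 4 mature 5p forms at 6 loci. Their sequences follow, 5′ to 3′, with the seed (bases 2 to 8) in capitals.
miR-181a-5p: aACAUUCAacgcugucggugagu
miR-181b-5p: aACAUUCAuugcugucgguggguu
miR-181c-5p: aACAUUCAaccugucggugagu
miR-181d-5p: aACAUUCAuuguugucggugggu
In assembly GRCm38.p6, miR-181a-5p lies on the plus strand at chr1:137966468-137966490 and chr2:38852741-38852763. MicroRNAs were not measured on these arrays, and no target site was looked for here.

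The Dicer1 probe set followed the labels. Its signals were 244, 228 and 223 on the wild-type arrays, 169, 201 and 187 on the heterozygous arrays and 115, 101 and 97.2 on the null arrays. On the log2(signal + 12) scale the null arrays fell by 1.07 from the wild-type level (SE 0.11, limma adjusted p = 1.88e-05), while heterozygous against wild type gave -0.31 (limma adjusted p = 0.217). Summed signals of 10 GMP markers overlapped between the groups and ran from 24483 to 29135. The brightest of them were Ctsg, Mpo and Prtn3, with mean signals of 8490, 8039 and 4473, so the sum says little of the dimmer markers. Csf3r was called lower in null arrays, by 0.38 against wild type and 0.40 against heterozygous on the log2 scale. Fcgr3 was called higher in null against wild type, by 0.37, and no other of the 10 was called in any comparison. The labels give the sex as female, and whether that is the recipient or the donor is not stated. The array of wild-type replicate 2 stood apart in sex-linked genes, with an Xist signal of 2609.6 against 16.4 to 30.2 on the other 8, and a signal of the Y-linked Eif2s3y of 1.13 against 622 to 859. Within a group the arrays correlated at r = 0.984 to 0.989.

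The 148 Zfp genes were dim. Their median signal was 122, against 242 for the 7495 other genes at or above the same floor, and 56 of them lay under 100. The brightest was Zfp622, whose product acts in the maturation of the large ribosomal subunit. Its probe set gave 2190.3, 2248 and 1829 in wild type, 2065, 2254 and 2145 in heterozygous and 2311, 2336 and 2102 in null arrays, and the groups overlapped (limma adjusted p = 0.434 in null against wild type). Zfp330, a nucleolar protein, had the next highest mean, with 1402, 1559 and 1442 in wild type, 1372, 1525 and 1530.4 in heterozygous and 1149, 1398 and 1185 in null arrays. No null value reached the lowest wild-type value, with a log2 difference of -0.24 that missed the threshold (limma adjusted p = 0.0765). Zfp367 and Zfp91, described further on, came next. The fifth was Zfp445, a KRAB protein that maintains imprints, with 1047, 1012 and 950.5 in wild type, 903, 958 and 997 in heterozygous and 907, 849 and 815 in null arrays. Its log2 difference between null and wild type was -0.22 (limma adjusted p = 0.064). With quantile normalization it was -0.28, and with the mean of all probe sets of a gene -0.41, and both passed (limma adjusted p = 0.0218 and 0.0329). The second brightest of its 3 probe sets fell by 0.51 on the log2 scale (limma adjusted p = 0.0234).

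At the floor, the members just inside were Zfp61, Zfp952 and Zfp54, with mean signals of 50.02, 50.2 and 50.6. Those just outside were Zfp595, Zfp628 and Zfp142, at 49.97, 49.1 and 48.7. For 11 members the mean of at least 1 group was under 50, and in 8 of these it was the null group. Replicates differed little, with a median coefficient of variation over the members of 8.92% for the wild-type, 10.9% for the heterozygous and 10.2% for the null arrays.

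In null against wild type, 20 of the 148 Zfp genes fell and 6 rose. The largest fall was that of Zfp386, a KRAB zinc finger gene, and the largest rise that of Zfp367, and by the probe set that stands for each gene only these were called with a change of at least 2-fold. A further probe set of Zfp597, given below with the other probe sets, also rose past that size. A gene is called here at a Benjamini-Hochberg adjusted p under 0.05 from limma, adjusted over the 12347 genes tested. By that rule 17.6% of the Zfp genes were called, against 15.7% of all genes tested and 23.0% of the other genes at or above the floor. The share that fell was 13.5%, against 8.09% of all genes tested and 11.5% of the other genes above the floor. The share that rose was 4.05%, against 7.60% and 11.5%. Null and wild-type values did not overlap for 40 members that were lower and 15 that were higher, or 27.0% and 10.1%. The same held for 19.0% and 14.1% of all genes tested, and for 23.3% and 19.2% of the other genes above the floor.

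Most changes were small and more often downward. The median log2 change of the 148 was -0.11, and 100 of them (67.6%) were below 0. Over all genes tested the median was -0.04 with 56.1% below 0, and over the other genes above the floor it was -0.03 with 54.4% below 0. The median signal of the 148 genes on an array was 123, 128 and 135 in wild type, 121, 124 and 134 in heterozygous and 115, 124 and 114 in null arrays, so that the groups overlapped. In these bulk samples fewer cells of a type and less RNA per cell cannot be told apart.

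**Figure D1:**
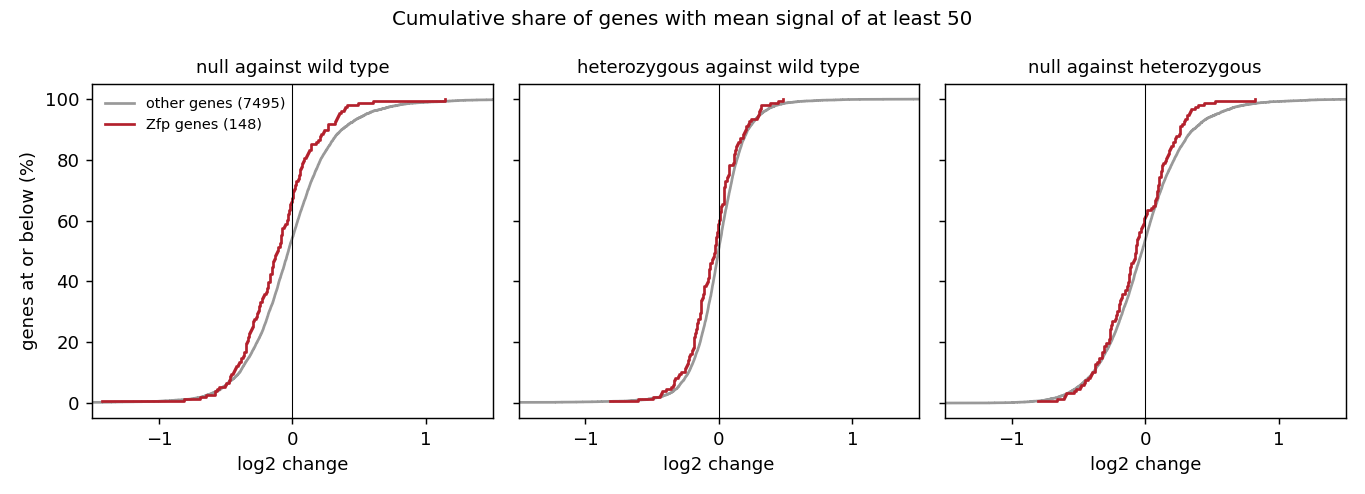
Cumulative share (percent, y axis) of genes at or below each log2 change (x axis) in the 3 comparisons, for the 148 Zfp genes and the 7495 other genes with a mean signal of at least 50. The Zfp curve lies to the left of the other genes in null against wild type, where 67.6% of Zfp genes and 54.4% of the others were below 0, and nearer to it in heterozygous against wild type.

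Dim genes leaned downward in general, so the comparison was repeated within bins of brightness. The 148 genes were split by mean signal into 4 bins of 37, and the other genes were placed in the same bins. From the dimmest bin to the brightest, 3, 5, 6 and 6 Zfp genes fell, or 8.11%, 13.5%, 16.2% and 16.2%. The other genes fell in 9.09%, 11.4%, 13.0% and 11.5% of cases. Rises were made by 1, 1, 0 and 4 Zfp genes, or 2.70%, 2.70%, 0% and 10.8%, against 5.43%, 6.10%, 11.3% and 14.6% of the others. With each bin of the other genes given equal weight, 11.2% fell and 9.37% rose, beside 13.5% and 4.05% of the Zfp genes, and 58.0% were below 0, beside 67.6%. The share of Zfp genes that fell was thus near that of other genes in the same bins, while their share of rises was below it. The brightest bin had no upper limit, so it also held other genes above 2164, the highest Zfp mean. In that bin the match is loose. No test of the list was made, and nothing in these shares marks the Zfp genes as particular.

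**Figure D2:**
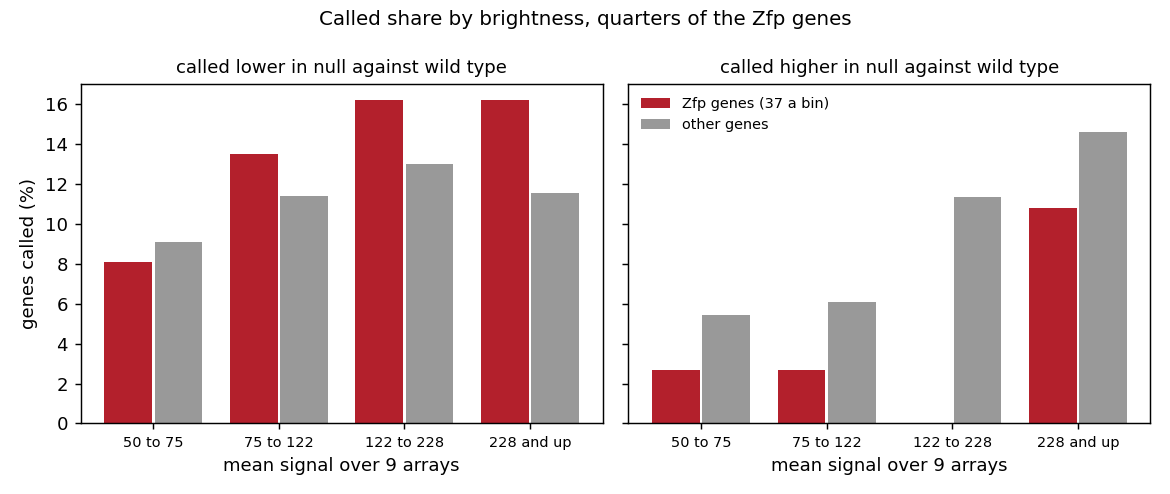
Share of genes called lower (left) and higher (right) in null against wild type, in percent, by mean signal over the 9 arrays. Bins hold 37 Zfp genes each, with the other genes of the same bin in grey, and the brightest bin has no upper limit. The bars for falls lie near each other, with 16.2% of Zfp genes and 11.5% of others in the brightest bin, while the Zfp bar for rises is the shorter in every bin.

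The balance of falls and rises moved with the scaling. With the signals as deposited 76.9% of the called Zfp genes were lower. With quantile normalization 16 fell and 9 rose, so 64.0% were lower, and with cyclic loess 15 fell and 9 rose, so 62.5% were lower. The median log2 change of the members was -0.07 and -0.06 under these scalings. Of the other genes above the floor that were called, 50.1% were lower as deposited, 48.4% with quantile normalization and 45.4% with cyclic loess. The number of members called was 15 without null replicate 1 and 14 without null replicate 3. It was 17 without wild-type replicate 1 and 14 without wild-type replicate 3. Without wild-type replicate 2, the array that stood apart and was singled out after seeing the data, 15 fell and 4 rose.

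**Figure D3:**
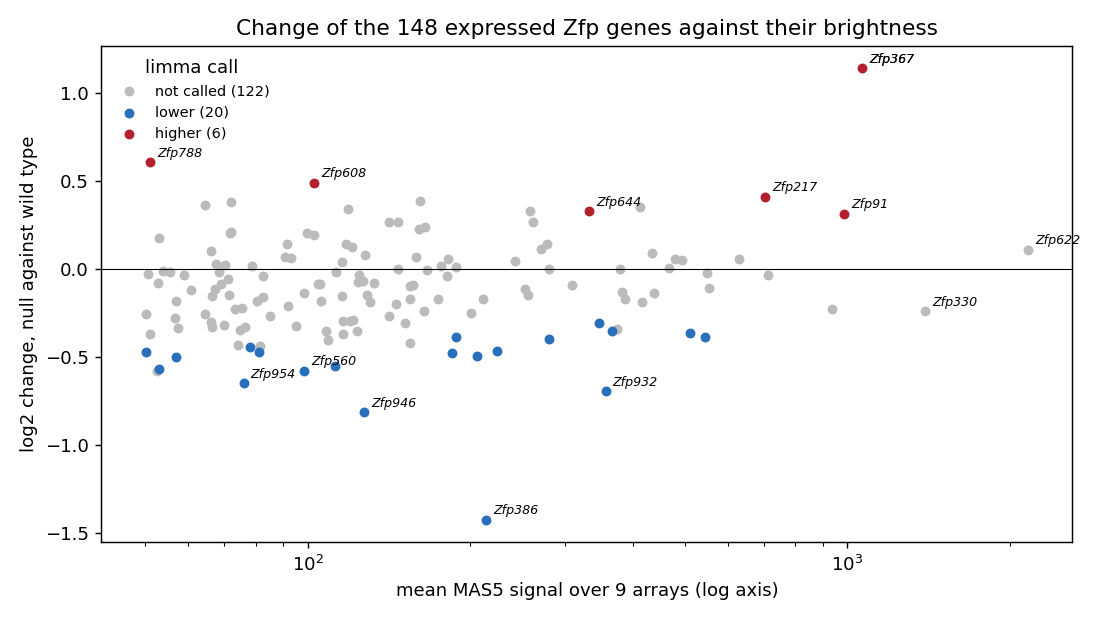
Log2 change in null against wild type (y axis) of each of the 148 Zfp genes against its mean MAS5 signal over 9 arrays (x axis, log scale), coloured by the limma call. The 20 genes called lower are spread over the range of brightness, and Zfp367 and Zfp386 lie farthest from 0.

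Zfp386 fell step by step with the Dicer1 genotype. Its signals were 347, 345 and 318 on the wild-type arrays, 169, 202 and 187 on the heterozygous arrays and 109, 126 and 119 on the null arrays. The groups did not overlap anywhere, and every heterozygous array lay between the null and the wild-type arrays. The log2 change was -1.43 in null against wild type (SE 0.10, limma adjusted p = 1.02e-06), -0.82 in heterozygous against wild type (limma adjusted p = 0.000432) and -0.61 between null and heterozygous arrays (limma adjusted p = 0.00153). A further probe set of the gene also fell, by 0.67 on the log2 scale (limma adjusted p = 0.0218).

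Zfp946 was at wild-type level in the heterozygous arrays and lower in the null arrays. It gave 149.8, 142 and 159.7 in wild type, 142, 159 and 148 in heterozygous and 84.4, 88.7 and 69.3 in null arrays. The null values lay below all other 6 values, with a log2 change of -0.81 against wild type (SE 0.12, limma adjusted p = 0.000385) and of -0.81 against heterozygous (limma adjusted p = 0.000513). The promoter windows of these genes are shown because theirs were the largest falls and because their heterozygous arrays differ. The windows are those of RefSeq on GRCm38.p6, from 250 bases before to 50 after the annotated start, at chr12:116047474-116047773 for Zfp386 and chr17:22423952-22424251 for Zfp946, both on the plus strand. Capitals mark matches to promoter motifs on either strand. The GC box was searched as GGGCGG, and 2 such matches overlap in Zfp386. The CCAAT box was searched by the letters of its name. The E box was searched as CACGTG.
Zfp386: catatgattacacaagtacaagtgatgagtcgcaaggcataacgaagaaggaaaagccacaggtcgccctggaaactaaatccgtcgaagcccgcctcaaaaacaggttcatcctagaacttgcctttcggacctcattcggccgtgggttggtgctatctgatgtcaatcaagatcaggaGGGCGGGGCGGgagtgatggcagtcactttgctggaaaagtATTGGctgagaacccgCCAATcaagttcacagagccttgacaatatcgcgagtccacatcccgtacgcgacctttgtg
Zfp946: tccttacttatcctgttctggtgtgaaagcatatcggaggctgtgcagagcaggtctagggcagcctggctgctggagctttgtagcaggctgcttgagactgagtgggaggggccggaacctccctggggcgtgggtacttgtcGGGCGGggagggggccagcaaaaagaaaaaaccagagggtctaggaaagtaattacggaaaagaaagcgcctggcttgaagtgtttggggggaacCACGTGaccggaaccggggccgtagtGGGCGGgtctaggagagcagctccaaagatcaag
Zfp386 has 2 GC boxes and 2 CCAAT boxes in its window, and Zfp946 has 2 GC boxes and 1 E box. A match to these letters is not a binding site.

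Other members fell with the heterozygous arrays in between. Zfp932 gave 499.7, 494 and 379.8 in wild type, 326, 357 and 319 in heterozygous and 277, 311 and 244 in null arrays. Its 3 groups did not overlap, and the change was -0.70 (SE 0.12, limma adjusted p = 0.00136) in null against wild type, while heterozygous against wild type, at -0.43, missed the threshold (limma adjusted p = 0.105). Zfp954 gave 99.9, 104 and 85.1, then 69.8, 87.7 and 66.2, then 52.5, 54.2 and 64.6 in the same order of groups. Null values lay below wild type without overlap, with a log2 change of -0.65 (SE 0.14, limma adjusted p = 0.00578). Over all 20 genes that fell, the heterozygous mean lay between the others in 19, against 65.2% of the 862 other genes above the floor that fell. These genes were chosen by the same null and wild-type arrays, and the order of means does not say how near the heterozygous mean lay to either group. Over all 148 members the heterozygous mean lay between the others in 43.9%, and over the other genes above the floor in 39.9%.

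In a further set the fall was seen in the null arrays with heterozygous values close to wild type. Zfp560 gave 91.5, 131 and 114 in wild type, 127, 105 and 106 in heterozygous and 72.7, 70.6 and 68.4 in null arrays, with log2 changes of -0.58 and -0.59 against them (limma adjusted p = 0.0096 and 0.00931). Zfp251 gave 234, 241 and 215 in wild type, 223, 226 and 231 in heterozygous and 167, 137 and 177 in null arrays, with log2 changes of -0.50 and -0.48 (limma adjusted p = 0.00622 and 0.00873). Zfp764 gave 208, 206 and 206 in wild type, 201, 191 and 217 in heterozygous and 160.3, 147 and 129 in null arrays, with log2 changes of -0.48 and -0.45 (limma adjusted p = 0.00648 and 0.00993). In each of the 3, every null array lay below the other 6 arrays. The probe set of Zfp764 is of the x kind, whose probes may also match transcripts of other genes. The null against heterozygous call of Zfp560 was lost without heterozygous replicate 1 (limma adjusted p = 0.0508), and that of Zfp764 without null replicate 3 (limma adjusted p = 0.0512). With the mean of all probe sets of a gene, both calls of Zfp560 were lost, at -0.21 against wild type and -0.27 against heterozygous (limma adjusted p = 0.301 and 0.206). Its second, dimmer probe set gave 0.15 in null against wild type and was not called.

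The remaining falls among the 12 largest were those of Zfp12, Zfp637, Zfp869, Zfp61 and Zfp566. Zfp869 gave 68.5, 71.1 and 81.0 in wild type, 44.2, 58.1 and 45.0 in heterozygous and 49.5, 46.4 and 49.0 in null arrays, so heterozygous and null arrays overlapped and lay below all wild-type arrays. Its log2 change was -0.50 in null (limma adjusted p = 0.0234) and -0.49 in heterozygous arrays, the latter not past the threshold (limma adjusted p = 0.111). Zfp566 gave 86.8, 106 and 90.7 in wild type, 85.3, 81.1 and 86.2 in heterozygous and 64.7, 72.0 and 58.1 in null arrays, a change of -0.47 in null against wild type (limma adjusted p = 0.0198). Null values lay below both other groups without overlap. Zfp12 changed by -0.57, Zfp637 by -0.55 and Zfp61 by -0.47 (limma adjusted p = 0.0431, 0.0403 and 0.04). For Zfp637 the null and wild-type values overlapped, with 116, 159.7 and 118 in wild type and 74.9, 118 and 69.0 in null arrays. These 5 calls were not far under the threshold. Each was lost in some fits with 1 array left out. For Zfp637 these included fits without a heterozygous array, where its change stayed at -0.55. The call of Zfp12 was lost in 6 of 9 fits, of Zfp637 in 7, of Zfp61 in 6, of Zfp869 in 4 (each null array and wild-type replicate 3) and of Zfp566 in 3 (null replicates 1 and 3 and wild-type replicate 2). The limma adjusted p then reached 0.154, 0.161, 0.113, 0.0918 and 0.0844 in that order. With quantile normalization the calls of Zfp12, Zfp637, Zfp869 and Zfp61 were lost as well, at -0.47, -0.49, -0.41 and -0.37 (limma adjusted p = 0.0938, 0.0671, 0.0589 and 0.109).

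The other 8 genes that fell changed by 0.31 to 0.46 on the log2 scale and are named after their values were seen. They are Zfp593, Zfp267, Zfp410, Zfp263, Zfp639, Zfp106, Zfp991 and Zfp35. Zfp593, a ribosome assembly factor, fell by 0.46 (limma adjusted p = 0.00792) on a probe set of the x kind. Zfp410, a factor known for activating the gene of the NuRD remodeller Chd4, gave 337, 310.3 and 342 in wild type, 231, 271 and 279 in heterozygous and 223, 239.9 and 281 in null arrays. Null and wild-type values did not overlap, and the change was -0.40 (SE 0.11, limma adjusted p = 0.0221). The heterozygous difference of -0.33 missed the threshold (limma adjusted p = 0.18). With single arrays left out, Zfp593 kept its call in null against wild type in all 9 fits, and Zfp410 and Zfp639 in 5. Zfp267, Zfp263, Zfp106, Zfp991 and Zfp35 kept theirs in 4. The limma adjusted p then reached 0.0874 for Zfp410 and 0.163 for Zfp263. Over 20 settings including these fits, Zfp593 was called in 18 and Zfp410 in 13, with limma adjusted p up to 0.494 and 0.135.

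**Figure D4:**
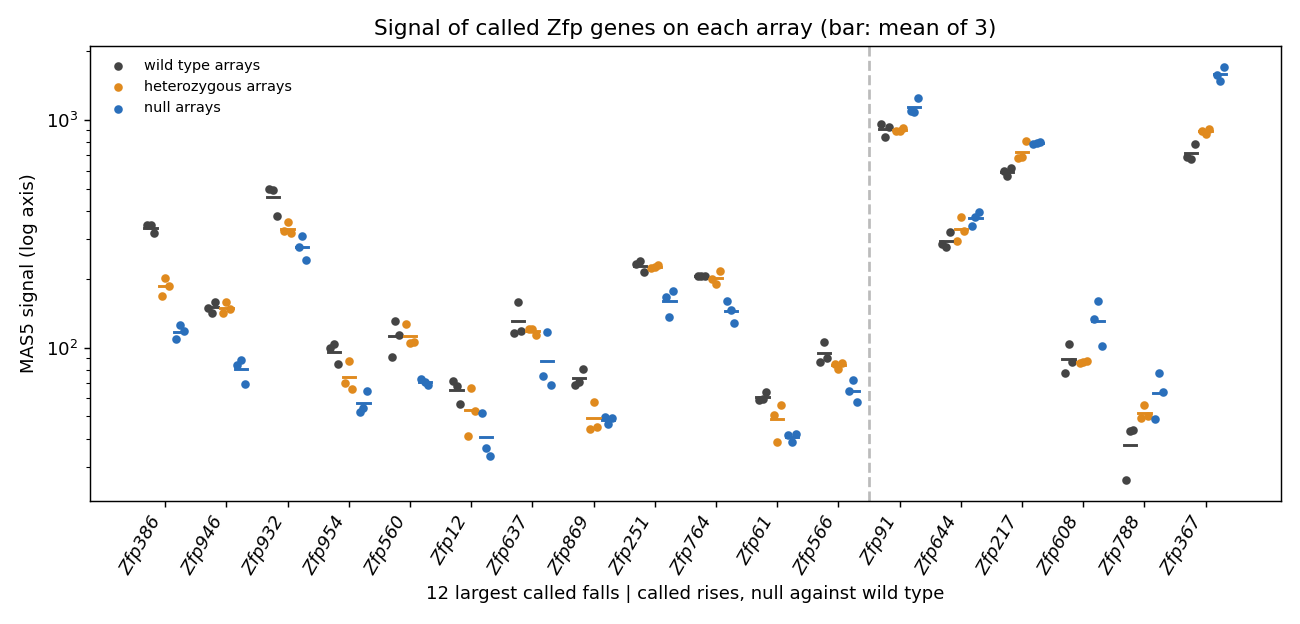
MAS5 signal (log y axis) on each of the 9 arrays for the 12 largest falls and the 6 rises in null against wild type. Points are arrays, coloured by genotype, and bars are means of 3. Zfp386 and Zfp367 show the widest gaps, while Zfp637 and Zfp608 overlap between null and wild type.

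Zfp367 rose most. It encodes a zinc finger protein first described in human erythroid cells. Its signals were 687, 674 and 785 in wild type, 899.5, 865 and 910.3 in heterozygous and 1576, 1482 and 1717 in null arrays. The 3 groups did not overlap, and null exceeded wild type by a log2 difference of 1.14 (SE 0.08, limma adjusted p = 1.21e-06). Null against heterozygous arrays gave 0.82 (limma adjusted p = 3.43e-05), and heterozygous against wild type 0.32, which missed the threshold (limma adjusted p = 0.0884). With the mean of its 2 probe sets, of which the second was too dim to be tested singly, the changes were 0.44 and 0.37 in null against wild type and against heterozygous, and both were still called (limma adjusted p = 0.0171 and 0.0381).

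Zfp788, the second largest rise, was dim. It gave 26.3, 43.0 and 43.5 in wild type, 49.1, 56.3 and 50.3 in heterozygous and 48.6, 77.8 and 64.0 in null arrays, a log2 change of 0.61 (SE 0.18, limma adjusted p = 0.0357) in null against wild type without overlap. The call was lost without null replicate 2, without null replicate 3 and without wild-type replicate 1 (limma adjusted p = 0.0971 to 0.135). The mean of its 2 probe sets gave 0.24, which was not called (limma adjusted p = 0.32). The promoter windows of the top rises are shown beside those of the falls, both as the first of 2 windows that RefSeq gives, at chr13:64153150-64153449 on the minus strand for Zfp367 and chr7:41633281-41633580 on the plus strand for Zfp788. Capitals mark the same motifs and, in addition, TTTGGCGC, TTTCCCGC or TTTCGCGC (E2F), on either strand.
Zfp367: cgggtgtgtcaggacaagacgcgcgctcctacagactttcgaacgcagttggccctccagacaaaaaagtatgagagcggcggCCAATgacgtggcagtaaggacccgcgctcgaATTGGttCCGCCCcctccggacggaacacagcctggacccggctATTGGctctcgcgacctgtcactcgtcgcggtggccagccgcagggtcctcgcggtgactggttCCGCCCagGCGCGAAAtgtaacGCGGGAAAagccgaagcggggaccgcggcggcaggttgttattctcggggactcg
Zfp788: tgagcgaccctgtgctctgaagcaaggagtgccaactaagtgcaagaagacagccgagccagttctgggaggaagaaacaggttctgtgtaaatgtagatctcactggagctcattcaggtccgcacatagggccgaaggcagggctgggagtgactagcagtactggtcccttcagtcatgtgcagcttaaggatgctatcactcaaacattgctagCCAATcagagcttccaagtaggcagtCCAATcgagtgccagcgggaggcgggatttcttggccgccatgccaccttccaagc
The Zfp367 window holds 2 GC boxes, 3 CCAAT boxes and 2 E2F matches, and the Zfp788 window holds 2 CCAAT boxes.

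The other rises were in bright genes, apart from Zfp608. Zfp217, the mouse form of a human oncogene whose product acts in corepressor complexes, gave 596, 566 and 616 in wild type, 683, 689 and 808 in heterozygous and 781, 792 and 803 in null arrays. All heterozygous and null arrays lay above all wild-type arrays, with log2 changes of 0.41 in null (SE 0.08, limma adjusted p = 0.00443) and 0.29 in heterozygous arrays, the latter not past the threshold (limma adjusted p = 0.128). Zfp91, a ubiquitin ligase of noncanonical NF-kB signalling, gave 965, 847 and 935 in wild type, 898, 892 and 925 in heterozygous and 1097, 1081 and 1251 in null arrays. Its null arrays lay above the other 6, with a change of 0.32 (SE 0.08, limma adjusted p = 0.0177), and the call was lost without null replicate 3 and without wild-type replicate 2 (limma adjusted p = 0.0887 and 0.0699). The mean of its 4 probe sets gave 0.12, which was not called (limma adjusted p = 0.387), and with eBayes without a trend it was not called either (limma adjusted p = 0.07).

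The smaller or less even rises were those of Zfp644 and Zfp608. Zfp644, a partner of the G9a and GLP histone methyltransferases, gave 285, 276 and 321 in wild type, 294, 375 and 325 in heterozygous and 343, 377 and 396 in null arrays, a log2 change of 0.33 in null against wild type (limma adjusted p = 0.049). Zfp608, a repressor of Rag genes in mouse thymocytes, gave 77.3, 104 and 86.6, then 85.5, 86.4 and 88.0, then 133, 160.0 and 102, a change of 0.49 (limma adjusted p = 0.0401). Null and wild-type values overlapped for Zfp608 and not for Zfp644. With 1 array left out the call of Zfp644 was lost in 6 of 9 fits and that of Zfp608 in 7, and the limma adjusted p reached 0.162 and 0.153. Averaged over all probe sets, Zfp644 gave 0.08 and Zfp608 0.32, neither called (limma adjusted p = 0.638 and 0.21).

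Zfp809 and Zfp568 are named here for their roles, outside the naming rule and after their values were seen, and neither passed the test. Zfp809, a KRAB protein that silences retroviral DNA in mouse embryonic cells, had means of 261 ± 14.6 on wild-type, 254 ± 31.1 on heterozygous and 242 ± 33.7 on null arrays (SD, n = 3), and the groups overlapped. Zfp568, a KRAB protein needed in mouse development, had means of 194 ± 18.6, 175 ± 12.7 and 196 ± 23.1 in the same order (SD, n = 3). Its log2 difference between null and wild type was 0.01, and that of Zfp809 -0.11 (limma adjusted p = 0.956 and 0.587).

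In heterozygous against wild-type arrays, 2 of the 148 Zfp genes fell and 0 rose by limma, or 1.35%, against 1.39% of all genes tested and 2.07% of the other genes above the floor. Falls were called in 0.697% of all genes tested and 0.987% of the others above the floor, and rises in 0.697% and 1.08%. The genes were Zfp386, given above, and Zfp958. Zfp958 gave 189.9, 188 and 181 in wild type, 112, 112 and 132 in heterozygous and 155, 161 and 131 in null arrays. All heterozygous arrays lay below all wild-type arrays, with a log2 change of -0.60 (SE 0.11, limma adjusted p = 0.0118), while null against wild type, at -0.30, missed the threshold (limma adjusted p = 0.0784). The call of Zfp958 was lost without heterozygous replicate 1, without heterozygous replicate 2 and without wild-type replicate 1 (limma adjusted p = 0.0502 to 0.0745). At an unadjusted p under 0.05, 16 members were lower and 8 higher. The median log2 change was -0.03, and 88 members (59.5%) were below 0. Values did not overlap for 19 members that were lower and 12 that were higher, or 12.8% and 8.11%, against 9.78% and 8.48% of all genes tested and 11.2% and 9.99% of the others above the floor. The count was 4 without wild-type replicate 3, and 1 without heterozygous replicate 1, without heterozygous replicate 2 and without wild-type replicate 1.

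Null and heterozygous arrays, which differ by the loss of the second allele, differed at 15 members (10.1%), of which 10 were lower and 5 higher. Among all genes tested 14.3% were called (7.49% lower, 6.84% higher), and among the other genes above the floor 21.6% (11.3% lower, 10.3% higher). Values did not overlap for 26 members that were lower and 16 that were higher, or 17.6% and 10.8%. The same held for 18.0% and 14.7% of all genes tested, and for 23.1% and 19.8% of the others above the floor. Zfp946, Zfp386, Zfp560, Zfp251, Zfp764 and Zfp639 were lower here as in null against wild type, and Zfp367, Zfp608 and Zfp91 were higher in both, but these comparisons share the null arrays. Zfp398 gave 114, 114 and 123 in wild type, 134, 165 and 147 in heterozygous and 98.1, 98.6 and 83.8 in null arrays. Heterozygous arrays were the highest and null arrays the lowest without overlap, and null against heterozygous gave -0.60 (SE 0.11, limma adjusted p = 0.0035). With the mean of its 7 probe sets the difference was -0.32 and was not called (limma adjusted p = 0.0822). Zfp825 gave 110.2, 123 and 109.9 in wild type, 154, 140.2 and 135 in heterozygous and 108, 114 and 50.3 in null arrays, and its difference of -0.66 (limma adjusted p = 0.0431) was lost in 6 of 9 fits with 1 array left out (limma adjusted p up to 0.142). Its lowest value was that of null replicate 3, without which the difference was -0.34 (limma adjusted p = 0.11). The calls of Zfp608 and Zfp91 in this comparison were lost in 5 and 2 such fits, and both were lost with the mean of all probe sets, at 0.41 and 0.19 (limma adjusted p = 0.112 and 0.18).

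Rises of null against heterozygous arrays were also called for Zfp451, a SUMO ligase, and for Zfp120. Zfp451 gave 169, 140.4 and 171 in wild type, 135, 141 and 156 in heterozygous and 188, 186 and 198 in null arrays, a difference of 0.37 on the log2 scale (limma adjusted p = 0.031). Zfp120 gave 166, 139.8 and 160.1 in wild type, 139, 148 and 143 in heterozygous and 178, 176 and 199 in null arrays, a difference of 0.34 (limma adjusted p = 0.0433). For both genes the null arrays were the highest of the 9. With 1 array left out, the call of Zfp451 was lost in 5 of 9 fits and that of Zfp120 in 7, with a limma adjusted p of up to 0.109 and 0.160. With the mean of its 5 probe sets Zfp451 gave 0.08 and was not called (limma adjusted p = 0.689), nor was it with eBayes without a trend (limma adjusted p = 0.0555). Its probe sets did not all go one way, and one with a mean signal of 102 gave -0.21. In all, 15 members were called with the signals as deposited, of which 66.7% were lower, against 7 lower and 6 higher (53.8%) with quantile normalization and 7 of each (50%) with cyclic loess. Of the other genes above the floor that were called, 52.3% were lower as deposited, 50% with quantile normalization and 47.1% with cyclic loess. The count of called members was 9 without null replicate 1 and 7 without null replicate 3. It was 9 without heterozygous replicate 1 and 8 without heterozygous replicate 2.

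Position in the genome was taken from RefSeq on GRCm38.p6, where 72 members had another Zfp gene as the next protein-coding gene on either side and 75 had none. Of the 72 with such a neighbour, 12 fell and 0 rose in null against wild type (16.7% called), with a median log2 change of -0.15. Of the 75 without one, 8 fell and 6 rose (18.7% called), with a median of -0.09. All 6 rises were thus among the 75 without such a neighbour, which were also brighter, with a median signal of 145.6 against 114.0. Zinc finger genes with other names were not counted as neighbours, so these 75 may still lie in clusters. There were 8 runs of neighbouring Zfp genes that held at least 3 members, and Zfp genes that are not members may lie between these. The run with the most members held Zfp229, Zfp760, Zfp942, Zfp943, Zfp994 and Zfp995 among its 8 Zfp genes. Their log2 changes ran from -0.15 to 0.03 and 0 of the 6 were called. In the run of Zfp758, Zfp944 and Zfp946 log2 changes ran from -0.81 to 0.14 and only Zfp946 was called. In each of the 8 runs at most 1 member was called. Zinc finger genes of a cluster resemble each other in sequence, and probe sets may read more than 1 of them.

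Promoter windows were given for 122 of the 148 members. CCAAT was found in 55.7% of them, against 43.0% of 6195 other genes above the floor and 41.1% of 27025 genes with a window. GGGCGG was found in 59.8%, against 71.1% and 38.2%, and CCGGAAG (the ETS motif) in 19.7%, against 24.1% and 9.93%. An E2F match was present in 7 members (5.74%), against 4.58% and 2.12%. Of the 15 members with a window that fell, 8 held CCAAT and 1 an E2F match, and of the 5 with a window that rose, 4 held CCAAT and 2 an E2F match. These shares describe the letters in the windows, and no test was made.

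The partners through which KRAB zinc finger proteins silence DNA were examined as a list of 35 genes, of which 33 were tested. In null against wild type 3 rose and 2 fell, while 7.60% of all genes tested rose and 8.09% fell. The list median was 0.01, beside -0.04 over all genes tested. Trim28, the scaffold, gave 957, 922 and 947 in wild type, 866, 951 and 976 in heterozygous and 882, 1016 and 901 in null arrays, which overlapped (log2 difference -0.02, limma adjusted p = 0.922). Setdb1, the methyltransferase, gave 107, 107 and 128 in wild type, 102, 119 and 112 in heterozygous and 107, 104 and 91.2 in null arrays (log2 difference -0.16, limma adjusted p = 0.419). The rises were those of Cbx5, which encodes heterochromatin protein 1 alpha, at 0.67, of the deacetylase Hdac1 at 0.32 and of Atf7ip, the partner of Setdb1, at 0.32 (limma adjusted p = 0.00165, 0.024 and 0.0461).

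Both falls among the partners were of NuRD genes, but NuRD as a list did not fall. Of its 13 genes tested 2 fell and 1, Hdac1, rose, with a median log2 change of 0.06. Chd4, its remodelling enzyme, gave 536, 556 and 613 in wild type, 626, 535 and 539 in heterozygous and 426, 375 and 374 in null arrays. The null arrays lay below the other 6, with a log2 change of -0.52 (SE 0.09, limma adjusted p = 0.00191). Mbd3 gave 53.0, 74.1 and 60.1 in wild type, 87.2, 60.4 and 69.7 in heterozygous and 37.8, 31.7 and 23.8 in null arrays, a change of -0.79 (limma adjusted p = 0.00645). The heterozygous arrays of Chd4 were at the wild-type level. Whether the changes of Zfp410 and Chd4 are linked was not tested. In heterozygous against wild type 0 of the 33 partners were called by limma, with 4 higher and 1 lower at an unadjusted p under 0.05. In null against heterozygous Hdac1 was higher, and Mbd3, Chd4, Ehmt2, Uhrf1 and Cbx1 were lower.

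Other zinc finger families above the same floor are given for comparison. Of 24 Zbtb genes, which join a BTB domain to the fingers, 2 rose and 0 fell by limma in null against wild type, with a median log2 change of 0.06 and with 4 higher and 1 lower at an unadjusted p under 0.05. Zbtb41 rose by 1.17 (limma adjusted p = 9.65e-05), with 72.4, 79.5 and 74.0 in wild type, 84.6, 75.3 and 70.3 in heterozygous and 192, 147 and 219.7 in null arrays, all null arrays being above the rest. Zbtb16, which encodes PLZF, rose by 0.42 (limma adjusted p = 0.0404). Of 10 Zkscan and Zscan genes, whose products carry a SCAN domain, 0 rose and 2 fell by limma, with a median of -0.18, and at an unadjusted p under 0.05 there were 0 higher and 4 lower. The falls were those of Zkscan17, by 0.47, and Zkscan3, by 0.36 (limma adjusted p = 0.0144 and 0.0466). Of 9 Klf genes 1 rose and 2 fell, with a median of 0.10. No difference between the families was tested.

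A single probe set stood for 60 members and 88 had several. Among the 26 called in null against wild type, 12 had further tested probe sets, 19 in all, of which 14 changed in the same direction as the leading one and 5 in the other. Of these 19, 3 were themselves called and agreed in direction, for Zfp386, Zfp644 and Zfp91. For Zfp644 and Zfp91 another probe set went the other way, at -0.53 and -0.55 on the log2 scale, and was not called. Of the members not called by the leading probe set, 65 had further tested probe sets, 116 in all, of which 3 were called, 2 lower and 1 higher. The 3, named after their values were seen, were of Zfp445, given above, Zfp277, which fell by 0.67 (limma adjusted p = 0.0431), and Zfp597. The Zfp597 probe set, with a mean signal of 90.7 against 93.0 for the leading one, rose by 1.02 in null against wild type and by 1.01 against heterozygous (limma adjusted p = 0.000877 and 0.00126), while the leading one gave 0.06 against wild type and was not called. These adjusted p-values of further probe sets are over the 22365 probe sets tested singly. Of the 156 Zfp genes under the floor, 111 were tested, and 3 fell while 0 rose by limma in null against wild type, with 12 lower and 2 higher at an unadjusted p under 0.05. The 3, named after their values were seen, were Zfp105, Zfp30 and Zfp740. They were 2.70% of the 111, against 15.7% called of all genes tested. The median log2 change of the 111 was -0.15.

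Some markers of other cells and of cell handling differed between the groups. Sums of the late neutrophil, erythroid, and mast cell and basophil lists overlapped between null and wild-type arrays. Of 8 early response genes tested, 6 were lower in null and 4 in heterozygous than in wild-type arrays, and the summed signal of the 9 on the array was 5088 to 6082 in wild type, 987 to 1424 in heterozygous and 691 to 1077 in null arrays. Late neutrophil genes summed to 3998 to 7464 in wild type, 2748 to 5036 in heterozygous and 2423 to 8800 in null arrays, with 2 of 7 lower in null than in wild type. B lymphoid genes summed to 1185 to 1435 in wild type, 1076 to 1187 in heterozygous and 539 to 649 in null arrays. Most of that sum was Ighm, the 1 gene of 3 tested that was lower in null than in wild type. Cd79b was at 131 to 178 and Vpreb1 at 16.6 to 43.9 over the 9 arrays, while Cd79a, Pax5 and Ebf1 were at or under 14.9 on every array, near or below an array's median signal of 12.4 to 16.1. T and NK genes summed to 1150 to 1206 in wild type, 921 to 1016 in heterozygous and 753 to 990 in null arrays, with 2 of 3 tested, Nkg7 and Klrd1, lower in null than in wild type. Nearly all of that sum was Nkg7, at 726 to 1153, while Cd3e and Cd3g were at or under 11.3 on every array. Erythroid genes summed to 147 to 868 in wild type, 257 to 355 in heterozygous and 140 to 274 in null arrays. The top of that range was wild-type replicate 2, where Car1 was at 631 against 43.1 to 188 on the other 8 arrays. Mast cell and basophil genes summed to 3325 to 5203 in wild type, 2943 to 3605 in heterozygous and 3727 to 5703 in null arrays. Of the 5 tested, only Fcer1a was called against wild type, at -2.25 in the null and -3.11 in the heterozygous group on the log2 scale. Ms4a2, Cpa3, Mcpt8 and Gata2 gave 0.24, 0.27, 0.39 and 0.01 in null against wild type. In null against heterozygous Cpa3 and Mcpt8 were called higher, by 0.56 and 0.61. The ratio of 3′ to 5′ signal for Gapdh was 6.56 to 7.44 in wild type, 6.00 to 6.33 in heterozygous and 7.11 to 7.72 in null arrays. The 5′ signal of the small ribosomal RNA was 907 to 1932 in wild type, 2548 to 3128 in heterozygous and 1338 to 1830.4 in null arrays. The part of these in the changes of the Zfp genes was not tested.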

How the data were processed

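Each of the 9 samples was read on 1 Affymetrix expression array. The deposited values are linear MAS5 signal intensities, 1 per probe set, and the submitters' processing notes name MAS5, its version and settings being not given in the sources used here. The 2% trimmed mean of the deposited intensity values was 100 on every array, so a shift common to most transcripts is scaled away. No detection calls were used, and precision is limited by the number of arrays.

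Of 45101 probe sets, 34945 had 1 gene symbol, 932 several and 9160 none, apart from 64 controls. The probe set with the highest mean log2(signal + 12) stood for a gene. Genes at or above the 40th percentile of probe set means (signal 8.49) were tested. Changes are given on this log2 scale, where those of dim genes come out too small. The fit was limma 3.58.1 in R 4.3.3 (lmFit, eBayes with trend, two-sided) over all 9 arrays and 3 groups, with Benjamini-Hochberg adjustment over 12347 genes, and was tested on simulated data. With 3 arrays a group, 0.1 is the smallest exact permutation p.

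The members, the gene lists and the tests were chosen with earlier results of these data known. Genes are named by a rule: the 12 largest called rises and falls in null against wild type, the 5 largest in each other comparison, the 5 brightest members, the 3 on either side of the floor, Dicer1, Trim28, Setdb1, called partners, and the 2 largest called rises and falls of the Zbtb and the Zkscan and Zscan families. Deviations of same-numbered replicates correlated at -0.03 to 0.14, against -0.15 to 0.09 for other pairs across groups. These ranges do not settle whether the numbers mark pairs, and the labels do not say. The numbers were therefore used only as a block in an alternative fit. Alternatives changed the pseudocount, filter, normalization, variance prior, probe set choice, arrays in the fit, array weights, replicate block and signal floor. Promoter and microRNA sequences are from RefSeq on GRCm38.p6.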

Additional observations from a re-analysis of the deposited data

How the results depend on the processing

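Counts of called Zfp genes changed with the filter, with the variance prior and when 1 array was left out. In null against wild type, where 26 were called, 20 lower and 6 higher, testing with no filter on dim genes gave 16 (13 lower, 3 higher), eBayes without a trend gave 15 (13 lower, 2 higher), and the mean of all probe sets or a fit of only the 2 groups compared left 3 higher. With a floor of 100, 13 were lower. In null against heterozygous, where 15 were called, no filter left 3 higher, eBayes without a trend gave 7 (6 lower, 1 higher), and the mean of all probe sets gave 9 (6 lower, 3 higher). Leaving out 1 array at a time gave 14 to 28 called in null against wild type (9 to 21 lower, 3 to 7 higher), 1 to 4 in heterozygous against wild type (1 to 4 lower, 0 higher), and 7 to 16 in null against heterozygous (5 to 14 lower, 1 to 5 higher). The median change stayed below 0 in each of these, from -0.15 to -0.07, from -0.06 to -0.01 and from -0.11 to -0.04. With the replicate number as a block, 30 members were called in null against wild type (22 lower, 8 higher), 4 in heterozygous against wild type (1 of them higher) and 19 in null against heterozygous. Of the 26 genes called in null against wild type, 10 were called in all 9 fits with 1 array left out, and 21 of the 25 called with quantile normalization were among the 26. For genes named singly, 17 results lost a call in at least 1 fit with 1 array left out and 16 under at least 1 other setting, and 0 changed direction while called. The causes were not tested. Signal over background is not known here, since no detection calls were used, which limits what can be said of dim genes.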
